A study of Mus musculus with 16 samples.

Results

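The comparison is between the ectoderm and the mesoderm of the mouse forelimb bud at E9.5, the earliest bud of the series. It takes 4 of the 16 libraries, 2 of ectoderm and 2 of mesoderm, chosen by the layer and stage named in the gene count table. RNA was sequenced from the 2 tissue layers of the distal forelimb bud at 4 stages from E9.5 to E12.5, in 8 groups of 2 libraries. Both E9.5 groups came from B6 embryos, and the labels name no allele and no agent but the trypsin. Per the labels, the distal 150 µm of forelimb buds was cut off and kept 20 min on ice in 0.25% trypsin, after which the ectoderm was lifted off the mesoderm with forceps. Ectoderm and mesoderm of a given replicate number were taken from 1 batch of embryos, which makes the comparison one within batches, and there were 2 batches. The batches were also extracted with different versions of an RNA kit, so that batch and kit version cannot be told apart. The p-values rest on how far the layer difference varied between the batches of a stage, pooled over the 4 stages. Totals at E9.5 were 10005867 and 16873358 counts in ectoderm and 23101374 and 16778322 counts in mesoderm (replicate 1, then replicate 2, as in every pair of values below). Levels are CPM (counts scaled to 1000000 per library) after TMM scaling, and SE stands for the standard error of the fit.

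A limb bud is a core of mesenchyme, with vessels and blood, under a sheet of surface epithelium whose distal rim thickens into the apical ectodermal ridge. The layers signal to each other: FGFs of the ridge keep the mesenchyme growing, mesenchymal FGF10 acts on an epithelial form of FGFR2, WNT7A of the dorsal ectoderm sets LMX1B in the dorsal mesenchyme, and En1 marks the ventral ectoderm. What holds the sheet together is an epithelial program of p63, grainyhead and ESRP proteins with the cadherins, claudins, desmosomes and laminins that they accompany.

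Expression differed between the layers in 6573 of 15501 tested genes (42.4%; edgeR quasi-likelihood test, adjusted p under 0.05). Ectoderm was higher in 3427 genes (22.1%) and lower in 3146 (20.3%). The counts over gene lists below are to be read beside these shares. Past a 2-fold difference, tested as such, ectoderm was higher in 1304 genes (8.41%) and lower in 620 (4.0%). The median log2 difference of all tested genes, ectoderm minus mesoderm as throughout, was -0.0047. The 32 lists, of 636 genes, were chosen for this tissue with earlier results of these data known. Values over a list are thus a description and not independent support. Of the 636 genes, 600 passed the filter on low counts, 35 did not, and 1 symbol was not found. The counts lean on the pairing by batch: without the batch term 3320 genes were called, and with the E9.5 pair of replicate 1 left out 3528. Past 2-fold, 1214 were called without the replicate 1 pair, 1219 without the replicate 2 pair and 1236 by DESeq2. In none of these did a shared call change its direction. The side with more calls at 0.05 was not stable. Ectoderm was higher in 3226 genes and lower in 3560 with DESeq2's size factors. With the DESeq2 test it was higher in 2636 and lower in 2721.

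**Figure D1:**
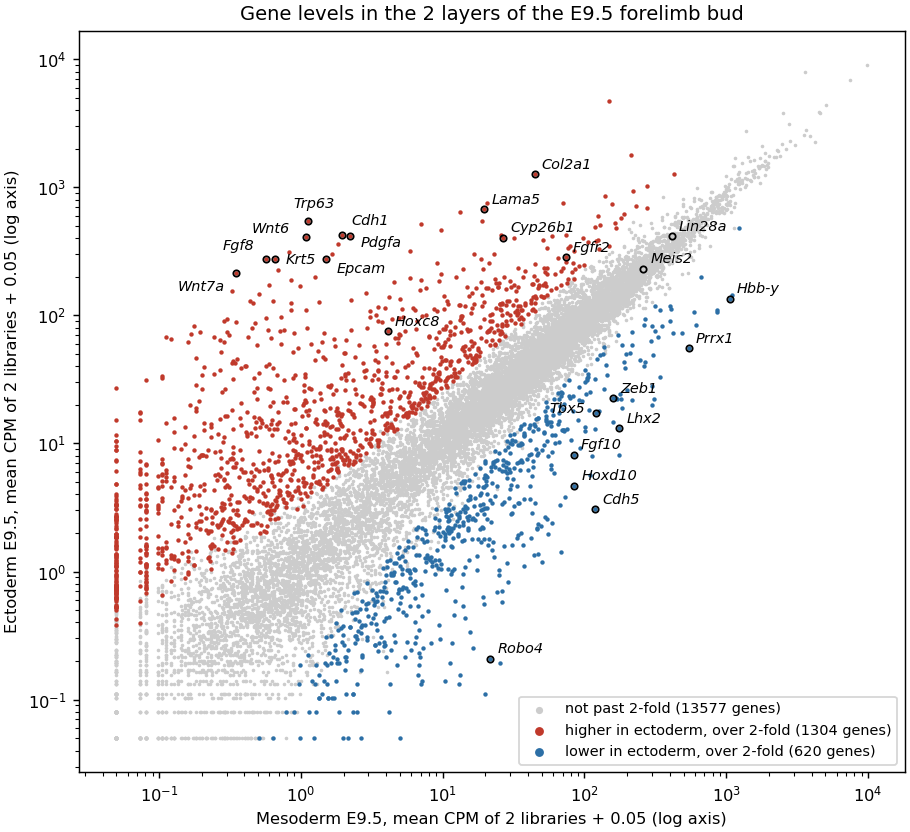
Each point is 1 of the 15501 tested genes, at its mean CPM over the 2 mesoderm libraries (x) and the 2 ectoderm libraries (y), on log axes with 0.05 added so that zeros can be drawn. The 1304 genes higher and the 620 lower in ectoderm by more than 2-fold are coloured; Trp63, Wnt7a and Fgf8 lie far above the diagonal, Cdh5 and Robo4 far below, and Lin28a and Meis2 near it.

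The genes that bear the layers' names lay on the labelled side. Trp63, which encodes the epithelial master regulator p63 (chr16:25683763-25892102, mm10), had 546 and 555 CPM in ectoderm and 1.29 and 0.861 in mesoderm. The layers were far apart, with little spread within ectoderm (log2 difference 8.96 ± 0.32 SE, adjusted p = 2.88e-08, edgeR). Prrx1, a transcription factor of limb mesenchyme, had 58.7 and 52.5 CPM in ectoderm and 461 and 627 in mesoderm (log2 difference -3.28 ± 0.39, adjusted p = 8.03e-05). Junction genes summed to 4440 and 3590 CPM in ectoderm and 199 and 148 in mesoderm. In the other direction the contrast was weaker: over the 62 tested transcription factors of limb mesenchyme, the median level in ectoderm was 32.7% and 32.0% of that in mesoderm. For 18 endothelial genes that median was 4.65% and 3.11%. For 15 red cell genes it was 2.58% in replicate 1 and 27.9% in replicate 2, where the second ectoderm library stands apart. The endothelial sums were 65.3 and 39.5 CPM in ectoderm and 1050.0 and 806 in mesoderm, and the red cell sums 102 and 771 against 3990.0 and 2770.0. In bulk libraries, fewer cells of a type and less RNA per cell cannot be told apart. The part of mesodermal, vessel or blood cells carried over with the ectoderm in the values below was not tested.

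Most epithelial regulators were higher in ectoderm, at mean levels there from 1.58 CPM (Cdx2) to 550 CPM (Trp63). Of 18 tested regulators, 15 were higher in ectoderm and 2 lower, and 1 was not called, with a median log2 difference of 5.88. Grhl2, a grainyhead factor that switches on junction genes, had 104 and 146 CPM in ectoderm and 0.573 and 0.246 in mesoderm (log2 difference 8.13 ± 0.40, adjusted p = 1.60e-07). Grhl3, its relative in epidermal closure, differed by 6.26 ± 0.37. The splicing factors Esrp1 and Esrp2, which impose epithelial exon choice, had 195 and 203 CPM and 37.9 and 42.7 CPM in ectoderm, against 0.43 and 1.97 and 0.287 and 0.43 in mesoderm. Every ectoderm library stood above every mesoderm library in both (log2 differences 7.48 ± 0.35 and 6.81 ± 0.29). Tfap2a, an AP-2 factor of surface ectoderm, differed by 4.84 ± 0.32.

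The exceptions among the regulators were Tfap2c and Prdm1. Tfap2c, another AP-2 factor, had 37.8 and 36.6 CPM in ectoderm and 74.8 and 87.0 in mesoderm, so that it was lower in ectoderm (log2 difference -1.12 ± 0.25, adjusted p = 0.00474). Prdm1, the repressor BLIMP1, had 19.7 and 26.7 CPM in ectoderm and 23.6 and 54.9 in mesoderm, and its layers overlapped (log2 difference -0.68 ± 0.21, adjusted p = 0.0271). Neither call was kept in every setting: Tfap2c was not called with either E9.5 pair left out, and Prdm1 was not called without the batch term or without the replicate 2 pair.

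Transcription factors of the ridge and limb ectoderm had the largest median of the 32 lists, a log2 difference of 7.45 (6.91 with genes at 0 in mesoderm set to their bound). Of 15 tested, 13 were higher in ectoderm and 1, Rarg, lower. Sp8, which the ridge needs for Fgf8, had 210.3 and 245 CPM in ectoderm and 0.669 and 0.615 in mesoderm (log2 difference 8.44 ± 0.31). Dlx5, a distal-less factor of the ridge, had 62.8 and 72.5 CPM against 0.382 and 0.369 (log2 difference 7.45 ± 0.27). Both ectoderm libraries were above 60 CPM and both mesoderm libraries below 1, in Dlx5 as in Dlx1 (80.8 and 83.3 CPM against 0.191 and 0.0615). En1 had 87.6 and 58.8 CPM in ectoderm and 1.15 and 0.553 in mesoderm (log2 difference 6.41 ± 0.32). Msx2, a BMP target of both layers, differed less, with 224 and 242 CPM against 38.0 and 29.6 (log2 difference 2.79 ± 0.26). Sp9, another SP factor of the ridge, was barely counted, with 12 counts over the ectoderm libraries and 4 over the mesoderm libraries. It was not called (edgeR, adjusted p = 0.214). Rarg, a retinoic acid receptor, differed by only -0.29 ± 0.10 (adjusted p = 0.0390) and was not called without the batch term, without either E9.5 pair or in a fit of the E9.5 libraries alone.

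Genes of cell junctions were an ectodermal set. All 35 tested junction genes were higher in ectoderm, with a median log2 difference of 5.90 (5.80 with the gene at 0 set to its bound), and 32 of them passed the 2-fold test. Cdh1, encoding E-cadherin, had 471 and 371 CPM in ectoderm and 1.96 and 1.85 in mesoderm (log2 difference 7.79 ± 0.41). Epcam, an epithelial adhesion molecule, had 281 and 269.6 CPM against 1.39 and 1.54 (log2 difference 7.56 ± 0.34). Claudins form the barrier strands of tight junctions, and Cldn4, Cldn6 and Cldn7 differed by 8.29 ± 0.37, 7.68 ± 0.36 and 7.60 ± 0.37. Cldn3, a further claudin, had 762 counts over the ectoderm libraries and 2 over the mesoderm libraries, a ratio of 544 with a 95% counting interval of 150 to 4500. Occludin (Ocln), a partner of the claudins, was present at only 4.85 and 4.22 CPM in ectoderm (log2 difference 4.20 ± 0.44). Perp, a desmosomal target of p63, had 354 and 266 CPM against 1.19 and 0.369 (log2 difference 8.59 ± 0.36). Desmoplakin (Dsp), which ties desmosomes to keratin, had 332 and 272 CPM against 22.5 and 10.8 (log2 difference 4.24 ± 0.30). Gjb2, a connexin of gap junctions, had 4.11 and 2.17 CPM against 0.191 and 1.23 and was not called without the replicate 1 pair (log2 difference 0.82, against 4.38 without the replicate 2 pair).

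Keratins of basal and of simple epithelia were both present. Of 11 tested, 8 were higher in ectoderm and 3 were not called (median log2 difference 4.41). Krt5, the basal keratin, had 343 and 211 CPM in ectoderm and 1.15 and 0.0615 in mesoderm (log2 difference 8.78 ± 0.61). Its partner Krt14 was much lower, at 13.5 and 15.0 CPM in ectoderm (log2 difference 6.19 ± 0.74). Krt8 and Krt18, the pair of simple epithelia, had 191 and 136 CPM and 157 and 128 CPM in ectoderm (log2 differences 4.41 ± 0.31 and 3.82 ± 0.22). The 3 without a call were Krt1 and Krt10, keratins of stratified layers, and Krt6a, with 1 count in all. Krt1 had 15 counts over the ectoderm libraries and 11 over the mesoderm libraries (log2 difference 1.21 ± 0.56). Krt10 had 3.38 and 2.90 CPM in ectoderm and 2.58 and 2.275 in mesoderm (log2 difference 0.37 ± 0.29).

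Per length of transcript, by the authors' FPKM, the highest of 52 key ectodermal genes were Fgf8 (280 and 165 in ectoderm), Cldn6 (220 and 163), Pdgfa (155 and 200), Wnt6 (185 and 131) and Perp (145 and 111). On the same scale the highest of 45 key mesodermal genes in mesoderm were Vim (158 and 109), Twist1 (125 and 127), Col3a1 (132 and 93.1), Msx1 (92.9 and 90.0) and Prrx2 (95.2 and 83.3). In Msx1 the ectoderm was almost as high (84.9 and 84.1).

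**Figure D2:**
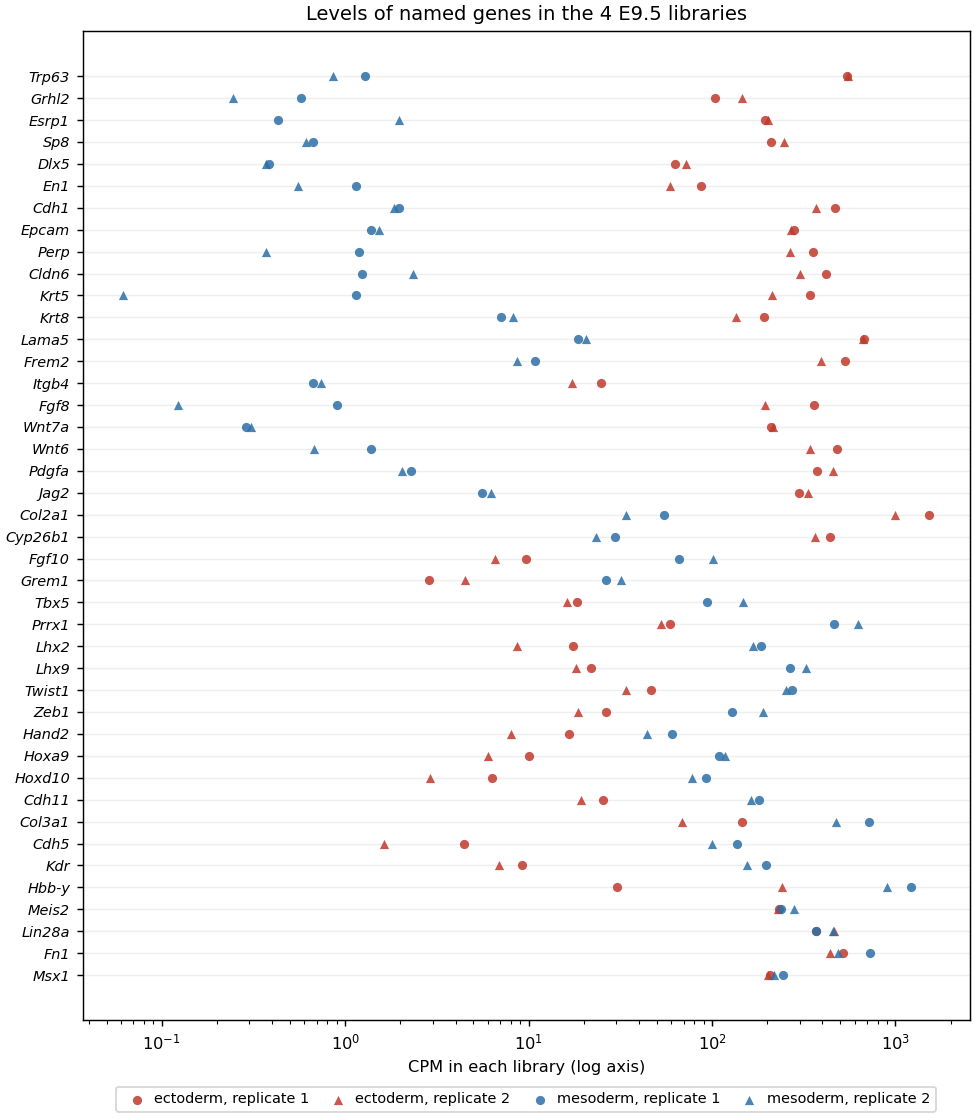
CPM of 42 named genes in each of the 4 E9.5 libraries, on a log axis; red marks ectoderm and blue mesoderm, circles replicate 1 and triangles replicate 2. From Trp63 to Cyp26b1 the ectoderm libraries lie to the right, from Fgf10 to Hbb-y the mesoderm libraries do, and in Meis2, Lin28a, Fn1 and Msx1 the layers lie close together. In Hbb-y the second ectoderm library (239.9 CPM) lies well above the first (30.4 CPM).

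ZEB and SNAI proteins repress epithelial genes through the E-box CAGGTG, which reads as CACCTG on the other strand, and their genes did not all lie on the same side. Zeb1 had 26.5 and 18.6 CPM in ectoderm and 128 and 190.3 in mesoderm (log2 difference -2.83 ± 0.42, adjusted p = 0.000396). Zeb2 (log2 difference -2.81 ± 0.30) and Snai1 (-2.60 ± 0.54; Snai1 was chosen after its values were seen) were also lower in ectoderm. Snai2 was higher in ectoderm, at 41.7 and 55.6 CPM against 12.51 and 18.8 (log2 difference 1.64 ± 0.12, adjusted p = 2.95e-06). Promoters, taken as 250 bases before to 50 after the start site (RefSeq, GRCm38.p6), were at hand for 10 of 18 key regulators and junction genes, and 8 of them held the E-box. The 5 with the largest log2 difference among those that held it are printed 5′ to 3′ on the gene's strand to show where it lies, with the E-box in capitals. Cldn4 lies at chr5:134946885-134947184 (minus strand), Cldn6 at chr17:23679115-23679414 (plus), Epcam at chr17:87635729-87636028 (plus), Grhl3 at chr4:135573583-135573882 (minus) and Dsp at chr13:38151044-38151343 (plus).
Cldn4 promoter: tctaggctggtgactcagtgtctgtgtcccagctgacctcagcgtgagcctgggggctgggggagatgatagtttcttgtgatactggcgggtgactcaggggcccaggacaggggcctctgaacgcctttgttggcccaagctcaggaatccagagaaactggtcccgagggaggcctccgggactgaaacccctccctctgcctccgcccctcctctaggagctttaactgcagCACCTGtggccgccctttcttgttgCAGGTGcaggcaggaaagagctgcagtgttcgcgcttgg
Cldn6 promoter: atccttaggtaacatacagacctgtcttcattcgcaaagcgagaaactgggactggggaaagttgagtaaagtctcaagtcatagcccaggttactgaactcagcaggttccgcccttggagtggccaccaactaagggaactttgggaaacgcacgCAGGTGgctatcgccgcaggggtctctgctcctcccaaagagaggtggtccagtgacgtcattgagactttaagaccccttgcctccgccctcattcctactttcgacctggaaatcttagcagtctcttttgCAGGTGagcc
Epcam promoter: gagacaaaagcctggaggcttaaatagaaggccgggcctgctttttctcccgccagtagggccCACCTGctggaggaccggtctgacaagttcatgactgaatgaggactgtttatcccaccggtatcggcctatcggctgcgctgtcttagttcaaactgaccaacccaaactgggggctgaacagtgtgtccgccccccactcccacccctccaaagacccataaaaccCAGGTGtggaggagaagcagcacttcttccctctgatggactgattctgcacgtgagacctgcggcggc
Grhl3 promoter: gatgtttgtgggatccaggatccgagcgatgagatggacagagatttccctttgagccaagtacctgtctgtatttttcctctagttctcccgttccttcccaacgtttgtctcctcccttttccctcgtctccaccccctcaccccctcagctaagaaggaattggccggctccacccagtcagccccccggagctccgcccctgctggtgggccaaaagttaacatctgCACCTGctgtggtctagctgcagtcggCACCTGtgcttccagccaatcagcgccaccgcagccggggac
Dsp promoter: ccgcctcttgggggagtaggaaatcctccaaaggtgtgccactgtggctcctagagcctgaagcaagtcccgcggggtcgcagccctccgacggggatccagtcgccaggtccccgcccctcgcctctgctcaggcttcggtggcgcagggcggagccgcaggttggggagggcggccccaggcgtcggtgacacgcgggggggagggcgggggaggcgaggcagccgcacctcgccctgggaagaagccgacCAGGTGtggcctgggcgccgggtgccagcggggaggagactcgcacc
Counted from the start site, the E-boxes begin at -14 and 11 in Cldn4, -93 and 40 in Cldn6, -187 and -19 in Epcam, -19 and 8 in Grhl3, and 3 in Dsp. Over all tested genes with a promoter at hand, 17.8% of 11259 promoters held CAGGTG on either strand. The share was 33.3% of 946 promoters of genes higher in ectoderm by more than 2-fold and 12.7% of 433 of genes lower by more than 2-fold. The grainyhead motif AACCGGTT was in 0.258% of all these promoters and in none of the 10. The AP-2 motif GCCNNNGGC was in 25.3% of all, 24.8% of the higher and 27.5% of the lower, and the GC box GGGCGG in 64.3%, 65.0% and 53.6%. Fewer than 80% of the genes in each set had a promoter in the table, so as a check over gene sets these shares are void and describe only the promoters at hand. A match is not a binding site.

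Most genes of the sheet's basement membrane were higher in ectoderm. Of 28 tested laminins, integrins and other basement membrane genes, 22 were higher in ectoderm, 2 were lower and 4 were not called (median log2 difference 2.38, or 2.18 with the gene at 0 set to its bound). Lama5, the laminin chain of the early epidermal basement membrane, had 676 and 667 CPM in ectoderm and 18.6 and 20.7 in mesoderm (log2 difference 5.10 ± 0.24). Its receptor chains Itga6 and Itgb4 differed by 3.67 ± 0.19 and 4.90 ± 0.26, and Col17a1, a hemidesmosome collagen, by 6.30 ± 0.27. The 2 that were lower in ectoderm were the nidogens, which link laminin to collagen IV. Nid1 had 42.4 and 23.7 CPM in ectoderm and 379.8 and 305 in mesoderm, and Nid2 had 59.2 and 39.3 against 368 and 242 (log2 differences -3.43 ± 0.34 and -2.63 ± 0.39). Fras1 and Frem2, of the Fraser complex that anchors epidermis to dermis, were higher in ectoderm by 3.59 ± 0.20 and 5.56 ± 0.35. All 5 tested genes of that list were higher in ectoderm, Grip1, an adaptor that brings the complex to the surface, by only 0.89 ± 0.13 and not without the batch term.

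Signals divided the layers sharply on the ectodermal side. Of 28 tested ligands of the ectoderm list, 22 were higher in ectoderm and 4 lower (median log2 difference 5.44, or 5.05 with genes at 0 set to their bound). Fgf8, the ridge FGF (chr19:45736798-45742915), had 358 and 194 CPM in ectoderm and 0.907 and 0.123 in mesoderm (log2 difference 9.01 ± 0.43, adjusted p = 1.35e-07). Wnt7a (chr6:91363981-91411363) had 209 and 216 CPM against 0.287 and 0.308 (log2 difference 9.45 ± 0.48). The ectoderm libraries differed from each other more in Fgf8 than in Wnt7a, and in both genes all ectoderm values lay far above all mesoderm values. Wnt6 had 482 and 340.5 CPM against 1.39 and 0.676 (log2 difference 8.62 ± 0.46). Wnt3, which the ectoderm needs to form a ridge, differed by 7.97 ± 0.32, and Wnt4 by 6.79 ± 0.24. Wnt10a had 260 counts in ectoderm and none in mesoderm, which puts it at least 124-fold higher against a floor of 3 counts over the mesoderm libraries. Bmp2 (34.1 and 23.5 CPM against 1.19 and 1.97) differed by 4.20 ± 0.30, and Bmp7 (235 and 214 against 114 and 120.4) by only 0.94 ± 0.09. Jag2, the Notch ligand of the ridge, differed by 5.75 ± 0.21 and Pdgfa, a growth factor for mesenchyme, by 7.56 ± 0.27. The 4 lower in ectoderm were Pdgfb (log2 difference -3.18), Hbegf (-2.85), Eda (-0.74) and Vegfa (-0.43). Without the batch term, or with either E9.5 pair left out, 2 of the 4 were called, and Eda and Vegfa were not.

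Ligands listed for the mesoderm did not all gather there. Of 34 tested, 12 were lower in ectoderm, 8 were higher and 14 were not called (median log2 difference -0.83). Among all tested genes 20.3% were lower and 22.1% higher, and the 8 are close to the latter share. Fgf10, the mesenchymal partner of the ridge FGFs, had 9.71 and 6.58 CPM in ectoderm and 65.7 and 102 in mesoderm (log2 difference -3.39 ± 0.56, adjusted p = 0.000783). Igf1, a growth factor of mesenchyme, was lower in ectoderm by a log2 difference of -2.49 ± 0.36. Wnt5a, which directs outgrowth and is well known from the distal mesenchyme, went the other way, with 469 and 386 CPM in ectoderm and 67.2 and 81.7 in mesoderm (log2 difference 2.52 ± 0.15, adjusted p = 4.79e-07). Bmp4 was also higher in ectoderm (126 and 82.2 CPM against 70.3 and 67.1; log2 difference 0.57 ± 0.14), though not without the batch term or without the replicate 1 pair. Hgf, the scatter factor that draws muscle precursors, was level, at 35.3 and 36.0 CPM in ectoderm and 39.0 and 40.2 in mesoderm (log2 difference -0.15 ± 0.17, adjusted p = 0.515). Shh, the signal of the posterior mesoderm, had 1 count in ectoderm and 26 in mesoderm, a ratio of 18.2 with a counting interval of 2.99 to 747, and was not called (adjusted p = 0.0591). In this list 8 were lower and 5 higher without the batch term, and without the replicate 1 or the replicate 2 pair 7 were lower.

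Antagonists were called on both sides, beside 20.3% lower and 22.1% higher over all tested genes. Of 19 tested, 8 were lower in ectoderm, 5 higher and 6 not called. Grem1, the BMP antagonist that keeps the ridge active, had 2.85 and 4.52 CPM in ectoderm and 26.4 and 32.0 in mesoderm (log2 difference -2.98 ± 0.22). Sfrp2, a WNT antagonist, differed by -1.95 ± 0.20. Dkk1, another WNT antagonist, was higher in ectoderm (24.1 and 29.5 CPM against 8.98 and 7.81; log2 difference 1.67 ± 0.28). Hhip, which binds hedgehog ligands, was near 1 CPM in all 4 libraries and not called (adjusted p = 0.308). Without the batch term 4 antagonists were called lower, and without the replicate 1 pair or the replicate 2 pair 5 were.

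Receptors were called on both sides, where 22.1% of all tested genes were higher in ectoderm and 20.3% lower. Of 32 tested receptors for signals of the ectoderm, 15 were lower in ectoderm and 7 higher (median log2 difference -0.56). The 7 are close to the share over all tested genes. Of 31 for signals of the mesoderm, 20 were higher in ectoderm and 3 lower (median 0.74). Without the batch term, 11 of the first list were lower and 3 higher, 4 were higher without the replicate 1 pair, and 1 of the second list was lower without that pair. Fgfr1, through which the ridge FGFs act on mesenchyme, had 91.8 and 95.4 CPM in ectoderm and 265 and 266 in mesoderm (log2 difference -1.50 ± 0.16, adjusted p = 3.57e-05). Fgfr2 had 263 and 302 CPM in ectoderm and 60.1 and 87.0 in mesoderm (log2 difference 1.96 ± 0.28, adjusted p = 0.000311). Pdgfra, the receptor for PDGFA, was lower in ectoderm (91.2 and 56.7 CPM against 198 and 237; log2 difference -1.59 ± 0.24). Fzd6, a WNT receptor of skin, had 134 and 142 CPM in ectoderm and 4.54 and 3.69 in mesoderm (log2 difference 5.06 ± 0.20). Lgr6, an R-spondin receptor, differed by 3.28 ± 0.25, Met, the receptor of HGF, by 2.87 ± 0.27, and Erbb3, a neuregulin receptor, by 4.59 ± 0.32.

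The exon counts give the form of FGFR2 in each layer. Fgfr2 has alternative exons, IIIb and IIIc, for the same part of the ligand-binding domain. The IIIb form is epithelial and binds FGF10, and the IIIc form is mesenchymal. Of 16 protein-coding transcripts annotated within the deposited span of the gene (GENCODE M21), 10 hold IIIb, 5 hold IIIc and none holds both. In ectoderm, IIIb had 103 of the 108 counts of both exon bins in replicate 1 and 204 against 19 counts of IIIc in replicate 2. That is a IIIb share of 95.4% (Wilson 95% interval 89.6 to 98.0) and 91.5% (87.1 to 94.5). In mesoderm, IIIb had 2 counts against 63 and 3 counts against 75, shares of 3.08% (0.85 to 10.54) and 3.85% (1.32 to 10.71). The intervals cover counting error only, and those of the layers lie far apart. Both layers held Fgfr2 RNA, mostly of different forms.

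Of 25 ligands set beside a receptor or a named target, 9 pairs were split between the layers and both members were called. The ligand was higher in ectoderm and the partner in mesoderm for Fgf8 and Fgf9 with Fgfr1, Bmp7 with Bmpr1b, Pdgfa with Pdgfra and Npnt with the integrin Itga8. So it was for Wnt7a with its target Lmx1b (63.3 and 72.2 CPM in ectoderm, 254 and 402 in mesoderm, log2 difference -2.25 ± 0.32). The ligand was higher in mesoderm and the receptor in ectoderm for Fgf10 with Fgfr2, Igf1 with Igf1r and Eda with Edar. Edar had 68.3 and 78.0 CPM in ectoderm and 1.48 and 1.35 in mesoderm (log2 difference 5.67 ± 0.27). Several members of split pairs were well present in the lower layer too. Bmp7 had 114 and 120 CPM and Igf1r 121 and 164 CPM in mesoderm, and Fgfr1 91.8 and 95.4 CPM in ectoderm. Both members lay on the same side in 6 pairs. Wnt3 with Fzd6 and Bmp4 with Bmpr1a were both higher in ectoderm. Cxcl12 with Cxcr4, Vegfa with Kdr, Efnb2 with Ephb4 and Sema3a with Nrp1 were all lower in ectoderm. In the other 10 pairs at least 1 member was not called. The split of 3 pairs leaned on the pairing by batch, since Bmpr1b, Itga8 and Eda were not called without the batch term, nor with either E9.5 pair left out; Fgf9 was not called without the replicate 1 pair (2.34, and 6.44 without the replicate 2 pair). Of the pairs on the same side, Bmpr1a, Vegfa and Ephb4 were not called in any of these 3 settings, Bmp4 not without the batch term or the replicate 1 pair, Cxcl12 and Cxcr4 not without the replicate 1 pair, and Nrp1 not without either pair.

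**Figure D3:**
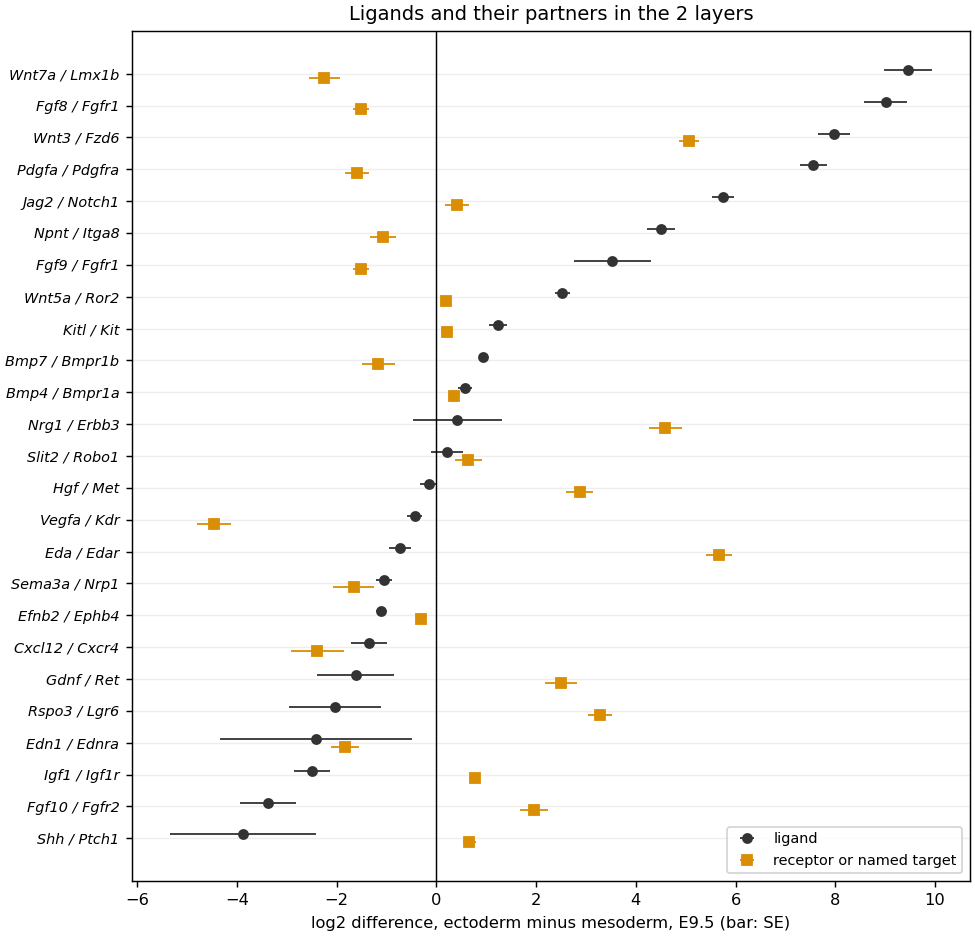
Log2 difference (ectoderm minus mesoderm) of 25 ligands (circles) and of the receptor or target set beside each (squares), with bars for the SE of the fit. The ligands run from Wnt7a at 9.45 down to Shh at -3.87, a value that rests on 1 count in ectoderm; the receptors spread less, from -4.46 (Kdr) to 5.67 (Edar).

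Readouts of these pathways were present in both layers. Of 13 FGF response genes, 5 were higher in ectoderm and 5 lower. Spry4, an FGF feedback inhibitor, was not called (log2 difference 0.32 ± 0.14, adjusted p = 0.0899), and Dusp6, the ERK phosphatase, was lower in ectoderm (144 and 173 CPM against 223 and 270.0; log2 difference -0.64 ± 0.16). Of 14 WNT response genes, 4 were higher and 5 lower, and Axin2, the general readout, was level (97.5 and 148 CPM against 80.3 and 150.4; log2 difference 0.13 ± 0.10, adjusted p = 0.358). Of 12 BMP response genes, 7 were higher in ectoderm and 1 lower (Atoh8, -0.74), with Bambi, a BMP pseudoreceptor, at 355 and 312 CPM against 57.9 and 50.4 (log2 difference 2.62 ± 0.16) and Id1 not called (adjusted p = 0.292). Of 11 Notch targets, 5 were higher and 2 lower, with Hes1 higher by 0.88 ± 0.15 and Hey1 lower (-1.27 ± 0.39). Many of these calls leaned on the pairing: without the batch term, or without the replicate 1 or the replicate 2 pair, 2 FGF response genes were lower, and 1, 2 and 0 WNT response genes were. With no batch term 3 FGF response genes were higher, no BMP response gene was lower, and Dusp6 and Hes1 were not called. Without either E9.5 pair 1 Notch target was lower, and Dusp6 and Hey1 were not called. Ptch1, the hedgehog receptor and readout, was slightly higher in ectoderm (62.7 and 71.1 CPM against 35.1 and 50.4; log2 difference 0.66 ± 0.13), and Gli1, the other readout, lower (1.16 and 0.965 against 4.20 and 3.63; -1.88 ± 0.47). Ptch1 was not called without the batch term or the replicate 1 pair, and Gli1 not without either E9.5 pair.

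Transcription factors of the limb mesenchyme were mostly lower in ectoderm. Of 62 tested transcription factors of limb mesenchyme, 36 were lower in ectoderm, 10 higher and 16 not called (median log2 difference -1.76). Tbx5, which starts the forelimb bud, had 18.4 and 16.3 CPM in ectoderm and 94.2 and 148 in mesoderm (log2 difference -2.79 ± 0.42, adjusted p = 0.000430). Lhx2 and Lhx9, LIM factors that relay ridge FGF signals, had 17.4 and 8.69 CPM and 21.8 and 18.2 CPM in ectoderm, against 184 and 168 and 268 and 327 in mesoderm (log2 differences -3.83 ± 0.71 and -3.90 ± 0.63). Twist1, a helix-loop-helix factor of mesenchyme, differed by -2.73 ± 0.43, Alx4, of the anterior bud, by -2.83 ± 0.34, Hand2, of the posterior bud, by -2.15 ± 0.41 and Gli3, the hedgehog repressor, by -1.30 ± 0.18. Prrx2, the relative of Prrx1, differed by -2.08 ± 0.46 and was not called without the batch term or either E9.5 pair, and Hand2 was not called without the replicate 2 pair. Msx1 (208 and 202 CPM against 243 and 217) and Sall4 (75.4 and 79.6 against 90.6 and 131) were not called. Without the batch term or the replicate 1 pair, 6 factors of this list were higher in ectoderm.

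Beside 20.3% lower and 22.1% higher over all tested genes, matrix and adhesion genes of mesenchyme were more often lower in ectoderm than higher. Of 33 tested, 15 were lower in ectoderm, 7 higher and 11 not called (median -0.42); without the batch term 9 were lower, and without the replicate 1 pair 4 were higher. Vimentin (Vim) had 105 and 59.4 CPM in ectoderm and 423 and 282 in mesoderm (log2 difference -2.13 ± 0.21), and Cdh11, a mesenchymal cadherin, differed by -2.95 ± 0.55. Col3a1, a fibrillar collagen, had 145 and 68.8 CPM against 722 and 471 (log2 difference -2.54 ± 0.42) and was not called without the batch term. Fn1, encoding fibronectin, was high in both layers (521 and 438 CPM against 724 and 485) and not called (adjusted p = 0.192). Col2a1, known as the cartilage collagen, was the reverse, with 1529 and 989.8 CPM in ectoderm and 54.9 and 34.1 in mesoderm (log2 difference 4.83 ± 0.35, adjusted p = 2.08e-06). In both layers the second library was lower than the first, in Col2a1 and Col3a1 alike.

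**Figure D4:**
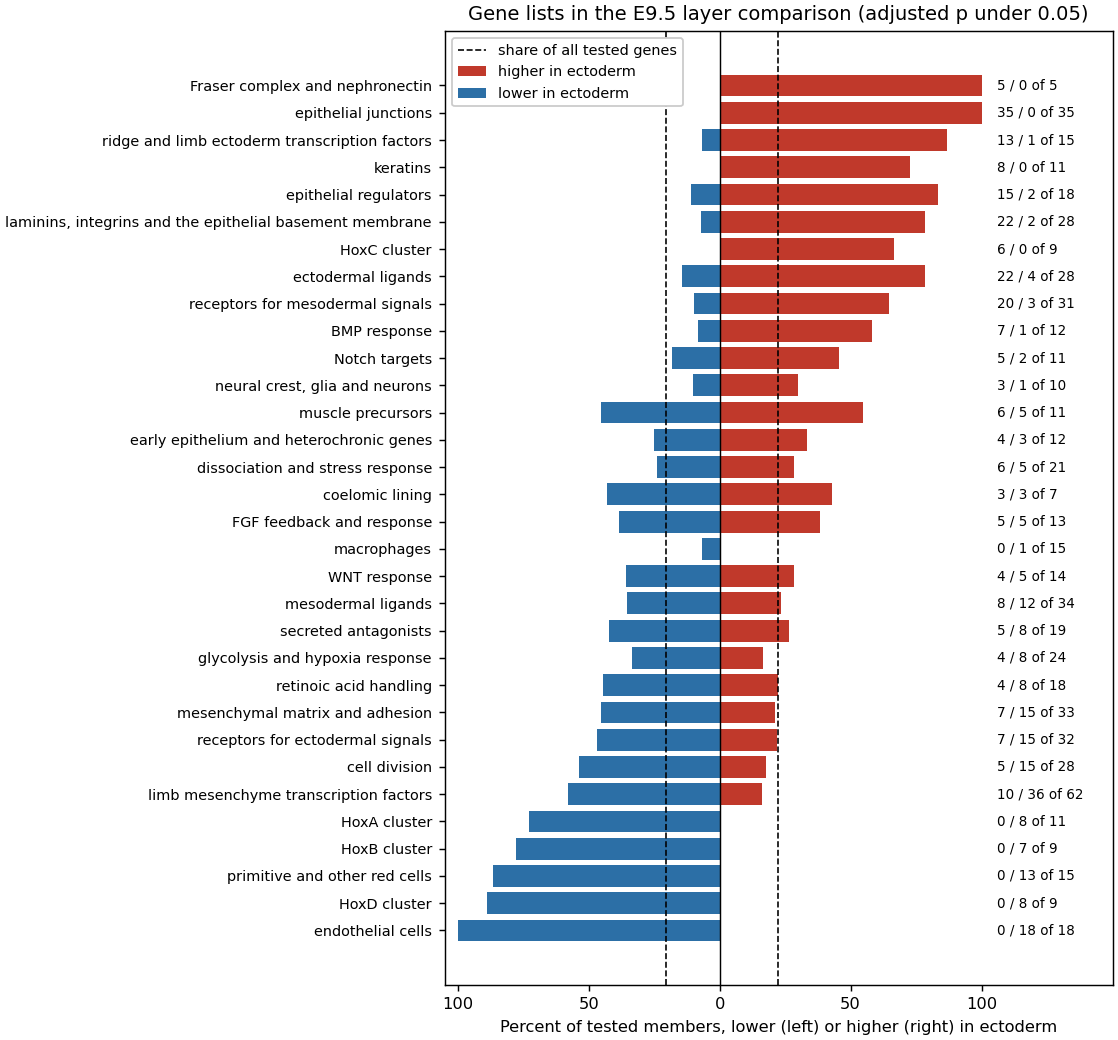
For each of 32 gene lists, the percent of tested members called higher (right, red) or lower (left, blue) in ectoderm, with the counts at the right as higher / lower of tested. Dashed lines mark the share of all tested genes, 22.1% higher and 20.3% lower; epithelial junctions reach 35 of 35 higher and endothelial cells 18 of 18 lower.

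The 4 Hox clusters did not share a side. HoxA genes were lower in ectoderm in 8 of 11, HoxB genes in 7 of 9 and HoxD genes in 8 of 9, with none higher (medians -2.74, -1.69 and -3.22). Of 9 HoxC genes, 6 were higher in ectoderm and none lower (median 1.02). Hoxa9 had 10.02 and 5.97 CPM in ectoderm and 110 and 117 in mesoderm (log2 difference -3.88 ± 0.47), Hoxd9 29.8 and 13.9 against 218 and 218 (-3.42 ± 0.47), and Hoxd10 6.33 and 2.90 against 92.2 and 77.7 (-4.29 ± 0.64). Hoxb8 and Hoxb9 differed by -2.38 ± 0.27 and -2.38 ± 0.29. Hoxc8 had 79.5 and 70.3 CPM in ectoderm and 4.11 and 4.0 in mesoderm (log2 difference 4.21 ± 0.19), and Hoxc9 had 16.04 and 13.3 against 1.39 and 1.05 (3.59 ± 0.33). Toward the front of the cluster the layers came together: Hoxc5 had 131 and 129 CPM in ectoderm and 65.8 and 62.6 in mesoderm (1.02 ± 0.17, not called without the batch term), and Hoxc4 27.8 and 26.5 against 36.2 and 41.8 (-0.52 ± 0.23, adjusted p = 0.0939). With the replicate 1 pair left out 5 HoxA genes were lower, with the replicate 2 pair left out 4 HoxB and 4 HoxD genes were, and without the batch term 5 HoxD genes were. No source used here says whether the counting used strand, and values in these dense clusters may hold reads of a neighbour on the other strand.

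Retinoic acid, which patterns the bud along its length, is made by ALDH1A2 and broken down by CYP26 enzymes. Aldh1a2 had 5.28 and 4.04 CPM in ectoderm and 35.4 and 24.8 in mesoderm (log2 difference -2.68 ± 0.34). Cyp26b1 had 441 and 364 CPM in ectoderm and 29.7 and 23.3 in mesoderm (3.93 ± 0.24, adjusted p = 6.22e-07), and Cyp26a1 7.60 and 6.03 against 0.907 and 0.676 (3.09 ± 0.40). At E9.5 the synthetic enzyme was thus higher in mesoderm and both of these degrading enzymes higher in ectoderm. Rarb, a retinoic acid receptor and target, was lower in ectoderm (13.7 and 14.7 CPM against 70.0 and 60.9; -2.20 ± 0.27), as was Crabp1, a binding protein (-1.28 ± 0.16). Of 18 tested genes of the list, 4 were higher and 8 lower, of which 5 were lower without the batch term and without the replicate 2 pair.

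The genes furthest apart in each direction were of different kinds. Among the 12 furthest on the ectodermal side, apart from Wnt7a, Fgf8, Dlx1 and Cldn3 above, Crhr1, a receptor for corticotropin-releasing hormone (chr11:104132855-104175523), had 27.8 and 25.9 CPM in ectoderm and no count in mesoderm. It was at least 330-fold higher. Acpp, encoding prostatic acid phosphatase, had 1723 counts in ectoderm and 2 in mesoderm, a ratio of 1230 with a counting interval of 340 to 10200. Kremen2, a DKK receptor, had 1668 and 3 counts, a ratio of 794 (271 to 3850), Cbr2, a carbonyl reductase, 789 and 1 (1130; 202 to 44500), and Vwde 941 and 2 (672; 185 to 5550). Trim29 and Prom2 differed by 9.11 ± 0.48 and 9.01 ± 0.46.

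On the mesodermal side most of the 12 furthest genes mark vessels. Robo4, an endothelial guidance receptor, had 3 counts in ectoderm and 829 in mesoderm, a ratio of 194 with a counting interval of 66.0 to 941. Dll4, the Notch ligand of arteries, had 0.106 and 0.181 CPM in ectoderm and 27.8 and 22.6 in mesoderm (log2 difference -7.26 ± 0.48). Cd93, Sox18, Cdh5, Emcn, Nos3, Tie1, Adgrf5, Pcdh12, Col15a1 and Tmem255a differed by between -5.79 and -5.12. In the endothelial list all 18 tested genes were lower in ectoderm (median -4.59). Cdh5, encoding VE-cadherin, had 4.43 and 1.63 CPM in ectoderm and 136 and 99.9 in mesoderm. Red cell genes were lower in ectoderm in 13 of 15 tested (median -2.87). The embryonic globin Hbb-y had 30.4 and 239.9 CPM in ectoderm and 1216 and 895 in mesoderm (-3.50 ± 0.72, adjusted p = 0.00304), with the second ectoderm library far above the first. Its log2 difference was -1.90 without the replicate 1 pair and -5.32 without the replicate 2 pair. Globin paralogs share reads, and their values are uncertain to that extent. Macrophage genes were close to nothing in both layers, with 2.11 and 2.47 CPM over 15 genes in ectoderm and 7.78 and 6.95 in mesoderm; 1 of them, Laptm5, was lower in ectoderm.

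The migrating muscle precursors had Pax3 (1.27 and 3.98 CPM in ectoderm, 18.4 and 11.4 in mesoderm; -2.47 ± 0.50) and Lbx1 (3.38 and 1.39 against 30.9 and 12.7; -3.19 ± 0.35) in mesoderm. The myogenic factors Myf5, Myod1, Myog and Myf6 were below the filter on low counts. Of the 11 tested genes of that list 5 were lower in ectoderm, Pax3, Lbx1, Cxcr4 and Meox2 among them, of which 1 was called lower without the replicate 1 pair, when Pax3 was not (-1.51, and -3.86 without the replicate 2 pair). The 6 higher in ectoderm, named after their values were seen, were Met, Eya2, Pax7, Meox1, Eya1 and Six4. Sox10, of neural crest, had 95 counts in ectoderm and 1 in mesoderm, a ratio of 136 (23.8 to 5410), and Tubb3, a neuronal tubulin, 122 and 78.0 CPM against 4.92 and 1.78 (4.94 ± 0.42). Isl1 had 70 counts in ectoderm and 17 in mesoderm and was not called without the batch term, either E9.5 pair or with DESeq2. In the lists of neural crest and of coelomic lining, 3 were higher and 1 lower (Stmn2, with 3 counts in ectoderm and 31 in mesoderm, not called without the batch term or either E9.5 pair) of 10, and 3 were higher and 3 lower of 7. Of the coelomic genes, Upk3b was lower in ectoderm (2.22 and 1.75 CPM against 14.1 and 6.03) but not without the replicate 1 pair, and Wt1 was not called; 1 was higher and none lower without that pair, and 1 was lower without the batch term, without the replicate 2 pair and with DESeq2.

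Lists of cell division, metabolism and stress had medians close to 0. Among all tested genes, 22.1% were higher in ectoderm and 20.3% lower. Of 28 cell division genes, 15 were lower in ectoderm and 5 higher, with a median of -0.28, and 4 were lower without the batch term or the replicate 1 pair, when 2 were higher; without the replicate 2 pair 3 were higher. Mki67 (549 and 645 CPM against 394 and 481) and Top2a (802 and 903 against 837 and 898), both of dividing cells, differed by 0.45 ± 0.16 and -0.03 ± 0.09. Top2a was not called, and Mki67 not without the batch term, either E9.5 pair or with DESeq2 size factors. Cdkn1c, a cell cycle inhibitor, was higher in ectoderm (519 and 250.3 CPM against 156 and 95.5; 1.57 ± 0.17) but not called without the batch term. Of 24 glycolysis and hypoxia genes, 4 were higher and 8 lower (median -0.10), and 2 and 2 without the batch term, with 2 lower without the replicate 1 pair and 2 higher and 5 lower without the replicate 2 pair; Slc2a3, a glucose transporter, had 780.4 and 724 CPM against 69.2 and 71.4 (3.42 ± 0.19). Of 21 dissociation and stress genes, 6 were higher and 5 lower (median -0.22); 3 were higher without the batch term, without the replicate 1 pair and with DESeq2, and 3 lower without the batch term. Fos, an immediate early gene, was low in both layers and higher in ectoderm (2.53 and 1.45 CPM against 1.10 and 0.738, log2 difference 1.10). Its call was lost without the batch term and with DESeq2. Hspb1, a small heat shock protein, was higher in ectoderm (41.1 and 24.9 CPM against 1.62 and 0.43, log2 difference 5.0 ± 0.31). Of 12 genes of early epithelium and heterochronic timing, 4 were higher and 3 lower. Lin28a, which blocks let-7 in early embryos, was the same in both layers (369 and 461 CPM against 368 and 457; 0.01 ± 0.10), while Lin28b (-1.05 ± 0.10), Hmga2 (-0.48 ± 0.12) and Mycn (-0.59 ± 0.14) were lower in ectoderm, all 3 without a call when the batch term was left out and Lin28b alone called without the replicate 2 pair.

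What set the earliest bud apart from the later ones was tested as the layer difference at E9.5 minus the mean layer difference of the 3 later stages, on the same fit. It was called in 3157 genes (20.4%), higher at E9.5 in 1605 (10.4%) and lower in 1552 (10%). Of the 6573 genes called at E9.5, 2074 were also called here, and 220 that were higher in ectoderm at E9.5 were called lower later, with 190 the reverse. Both tests use the E9.5 libraries. Among the later libraries the ectoderm of replicate 1 at E11.5 stands apart in mesenchymal genes (Lhx2 at 142 CPM against 6.22 in replicate 2, Prrx1 at 118 against 34.2; both chosen after their values were seen); without that pair 3519 genes were called. Without the batch term 947 genes were called, and without the replicate 1 or the replicate 2 pair of E9.5 1215 and 1575.

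The stage values below are a description, since changes within a layer between stages were not tested. Among the 8 genes whose layer difference at E9.5 most exceeded that of the later stages were ectodermal regulators with much higher levels in the later mesoderm. Dlx5 had 62.8 and 72.5 CPM in ectoderm at E9.5 and 79.1 and 69.8 at E12.5, and in mesoderm 0.382 and 0.369 at E9.5 and 89.2 and 74.9 at E12.5. Tfap2b, an AP-2 factor, had 0.334 and 0.123 CPM in mesoderm at E9.5 and 120 and 251 at E10.5, against 19.3 and 31.4 and 69.5 and 105 in ectoderm. Its layer difference was 6.63 at E9.5 and -0.25 on average later (difference 6.87 ± 0.53, adjusted p = 2.49e-05). Cyp26b1 lay on opposite sides at E9.5 and later, with 29.7 and 23.3 CPM in mesoderm at E9.5 and 958 and 830 at E10.5, while ectoderm had 441 and 364, then 428 and 342 (difference 6.10 ± 0.28). Dgkk, a diacylglycerol kinase, also had layer differences of opposite sign (3.79 at E9.5, -1.62 later). Foxj1, known as a factor of ciliated cells, differed in the ectoderm instead, with 32.4 and 24.9 CPM there at E9.5 and 0.274 and 0.528 at E12.5. Enpp1, Tmem178 and Crhr1 completed this group, with later differences of 2.61, 1.54 and 6.44.

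At the other end were mostly genes present in both layers at E9.5 and almost absent from the mesoderm later. Meis2, a TALE factor of the proximal limb, had 233 and 230 CPM in ectoderm and 239 and 279 in mesoderm at E9.5 and was not called there (-0.16 ± 0.14, adjusted p = 0.379). At E10.5 it had 114 and 93.8 CPM in ectoderm but 4.35 and 6.14 in mesoderm (difference of differences -6.21 ± 0.20, adjusted p = 1.87e-07). Meis1 was alike, with 71.6 and 98.0 CPM in mesoderm at E9.5 and 2.93 and 3.75 at E10.5. Irx3 and Irx5, factors of the early and anterior bud, were lower in ectoderm at E9.5 (-1.80 ± 0.14 and -1.86 ± 0.32, Irx5 not without the batch term) and higher later (3.73 and 3.67 on average). Hoxc4 and Hoxc5 had 36.2 and 41.8 CPM and 65.8 and 62.6 CPM in mesoderm at E9.5, and each was under 1 CPM in every later mesoderm library. Rspo2, a WNT amplifier of the ridge, had 39.4 and 39.5 CPM in mesoderm at E9.5 and 3.17 and 2.25 at E10.5, when ectoderm had 236 and 244. Lbx1, of muscle precursors, was seen in the E9.5 mesoderm and was under 1 CPM in each later library. Lin28a, level at E9.5, had 42.6 and 40.2 CPM in ectoderm and 11 and 9.0 in mesoderm at E10.5. Each cut took the distal tip of a bud of a different size, so stage and position along the limb cannot be told apart in these differences.

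**Figure D5:**
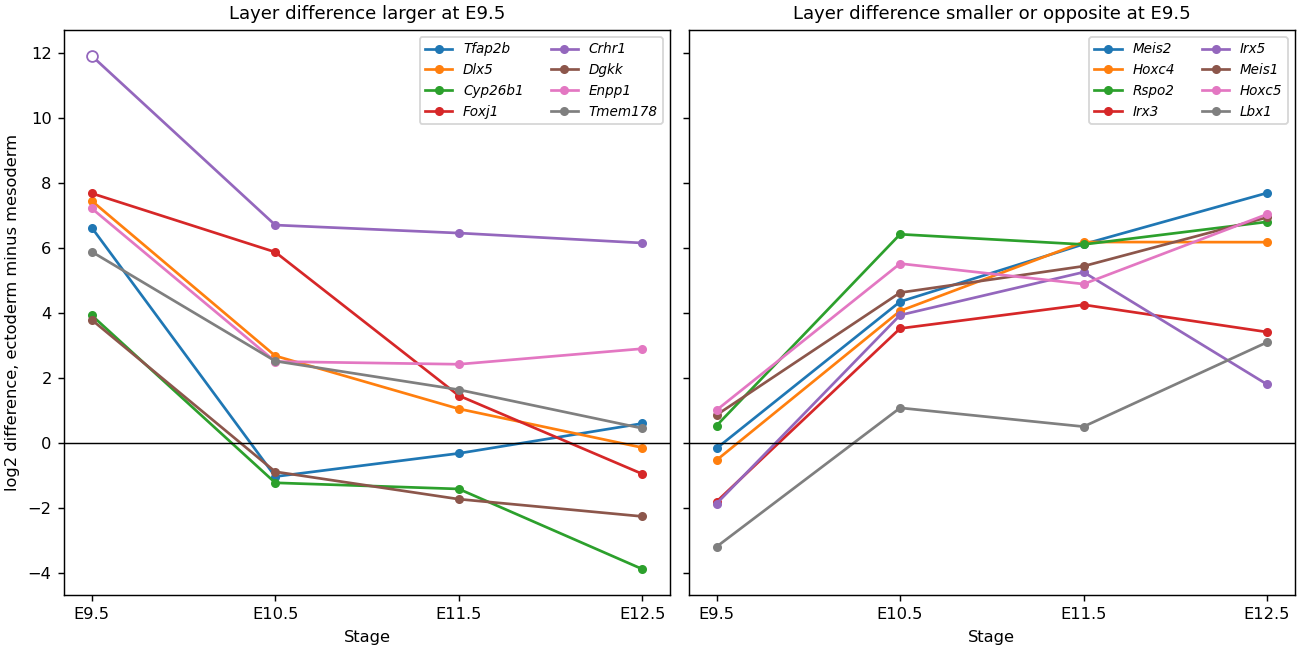
Log2 layer difference (ectoderm minus mesoderm) at each stage for the 8 genes with the largest difference in each direction between E9.5 and the mean of the later stages. On the left, Dlx5 goes from 7.45 at E9.5 to -0.14 at E12.5 and Cyp26b1 from 3.93 to -3.87; on the right, Meis2 goes from -0.16 to 7.70. The open circle marks Crhr1 at E9.5, which has no count in mesoderm, so that its fitted value is no estimate of size.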

How the data were processed

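RNA of the ectoderm and mesoderm of mouse forelimb bud tips was sequenced with a stranded polyA kit, per the labels' protocols, in 16 libraries of 10005867 to 30438214 counts. The authors deposited a table of raw read counts per gene, an FPKM table and read counts per exon bin for each library. The submitters' processing notes list cutadapt 1.16, STAR 2.6.0c, Cufflinks 2.2.1, bedtools 2.27.1 and the build mm10, with no role or order. The tool that counted reads, its strand setting and its treatment of reads with several matches are not given in the sources used here, so overlapping genes and paralogs are uncertain. Per the deposited header, FPKM values come from Cufflinks; they are used as given, with no test.

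The count table holds 53800 genes, of which 28342 had a count, and 15501 passed edgeR's filter on low counts by group. Counts were fitted with edgeR 4.0.16 (limma 3.58.1, R 4.3.3) over all 16 libraries, with TMM scaling, a mean for each of the 8 groups and a term for the embryo batch, and tested by the quasi-likelihood F test with Benjamini-Hochberg adjustment over all tested genes at 0.05. A difference past 2-fold was tested with glmTreat. The batch term follows the labels, by which ectoderm and mesoderm of the same number came from the same embryos. Over genes, the deviations of the E9.5 ectoderm pair correlated with those of the mesoderm pair of the same batches at 0.676. With the mesoderm pairs of the other stages, from other embryos but of the same replicate numbers, the correlations were 0.603 to 0.625. The shift was thus shared nearly as much across stages by replicate number, and its source was not tested. CPM are TMM-scaled, and the common biological coefficient of variation was 0.11. A gene with no count in a layer was set against a floor of 3 counts over that layer's libraries (0.115 CPM in ectoderm and 0.0806 in mesoderm), and intervals and floors cover counting error only. The fitting steps were tested on simulated data. Python 3.11.15 with pandas 2.3.3 and numpy 2.4.6 handled lists, promoters and exon bins. Promoter sequences are from RefSeq, and exon bins of Fgfr2 were matched to GENCODE M21.

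Members and lists were chosen with earlier results of these data known. Genes were named by rule: the 12 furthest apart in each direction with at least 20 CPM in the higher layer and no overlap between layers; the key members of the lists, the genes of the ligand pairs and members of counts of 5 or fewer; the 8 in each direction that differed most between E9.5 and later, with at least 20 CPM in a layer at E9.5; the 5 key genes of each layer with the highest FPKM; and 5 promoters with the E-box. A few genes that the rule names and a sequence are not reported here. The alternatives were a fit with no batch term, the E9.5 libraries alone, DESeq2's size factors, no filter, the DESeq2 1.42.0 Wald test, and each of the 8 pairs left out.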

Additional observations from a re-analysis of the deposited data

Results flagged for a closer look

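The results below differed between E9.5 and the later stages by the test of the difference itself (edgeR, adjusted p under 0.05). Each value is the log2 layer difference (ectoderm minus mesoderm) at E9.5 minus its mean over the 3 later stages. A positive value means relatively more RNA in ectoderm at E9.5 than on average later, also where a gene was lower in ectoderm throughout. It need not hold against each later stage. Stage by stage, the layer difference was 8.96, 6.69, 5.86 and 9.25 for Trp63 and 8.44, 6.46, 5.45 and 8.41 for Sp8. Epcam (7.56, 6.43, 5.60, 6.89) and Pdgfa (7.56, 6.51, 5.47, 6.13) were still below their first value in the last stage. Trp63 in mesoderm had 1.29 and 0.861 CPM first, 9.71 and 6.33 by E11.5, then 1.35 and 0.854 by E12.5. The source of this rise and fall was not tested. Over all tested genes 1605 were positive and 1552 negative. The 87 named genes among them follow in groups, as values only.

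Among epithelial and ectodermal factors the values were 6.87 for Tfap2b, 6.25 for Dlx5, 5.55 for Foxj1, 3.42 for Tfap2a, 1.70 for Trp63, 1.66 for Sp8, 1.44 for Snai2 and 1.38 for Msx2, against -1.84 for Tfap2c and -3.62 for Prdm1. Adhesion and basement membrane genes gave 1.25 for Epcam, 1.17 for Itga6 and 0.50 for Grip1. Below 0 were -3.04 for Gjb2, -2.63 for Dsp, -1.78 for Krt18, -1.51 for Fras1, -1.37 for Itgb4 and -0.77 for Lama5. Epcam, Grip1, Itgb4 and Lama5 were not called without the batch term (edgeR, adjusted p = 0.109, 0.638, 0.0783 and 0.207). DESeq2 did not call Epcam or Grip1 either (adjusted p = 0.113 and 0.154). Of the factors, Sp8 and Msx2 were not called without the batch term (edgeR, adjusted p = 0.137 and 0.103). Sp8 was also not called by DESeq2 (adjusted p = 0.0586). The same holds for Kdr, Hand2 and Pcdh12 below (DESeq2, adjusted p = 0.0854, 0.0884 and 0.063). Without the E9.5 replicate 2 pair Gjb2 gave -0.82 (edgeR, adjusted p = 0.574), and without the replicate 1 pair -4.34.

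Ligands gave 4.26 for Bmp2, 2.67 for Wnt5a and 1.52 for Pdgfa, and -5.91 for Rspo2, -4.60 for Cxcl12, -4.24 for Gdnf, -3.39 for Sema3a, -2.43 for Hgf, -2.38 for Efnb2, -1.46 for Eda, -0.68 for Vegfa, -0.64 for Bmp7 and -0.60 for Bmp4 (-0.33 and not called without the replicate 2 pair). Receptors and modulators gave 3.18 for Edar, 2.84 for Ret, 2.55 for Hhip, 2.27 for Kdr, 1.92 for Itga8, 0.93 for Kit, 0.85 for Bambi and 0.62 for Igf1r, and -3.74 for Lgr6, -2.06 for Notch1, -1.70 for Ednra, -1.62 for Fgfr2, -1.49 for Pdgfra and -0.77 for Sfrp2. Kdr and Itga8 were lower in ectoderm at every stage on average, so their positive values mean a smaller deficit at E9.5. The positive values of Aldh1a2, Hand2, Rarg, Hbb-y, Hba-x and Pcdh12 below read the same way, since these genes were also lower in ectoderm at E9.5.

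In the retinoic acid group Cyp26b1 gave 6.10, Aldh1a2 4.18 and Rarg 0.73, and Cyp26a1 -4.49 and Rarb -1.87. Factors of the mesenchyme and of limb position gave -6.21 for Meis2, -6.0 for Hoxc4, -5.53 for Irx3 and the same for Irx5 (-5.53), -4.80 for Meis1 and for Hoxc5 (-4.80), -4.39 for Hoxc9, -3.62 for Hoxc8 and -1.72 for Hoxb9, and 1.54 for Hand2, 1.18 for Msx1 and 1.18 for Sall4. Timing, growth and stress genes gave -4.42 for Lin28a, -2.08 for Jun, -1.84 for Hmga2, -1.63 for Lin28b and -0.92 for Hk2, and 2.48 for Cdkn1c, 0.83 for Mki67 and 0.55 for Top2a. Matrix genes gave 1.73 for Col2a1 and -1.39 for Vim.

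Genes of other cell types gave -5.20 for Upk3b, -4.75 for Lbx1, -3.23 for Pax3 and -1.28 for Tmem255a, and 2.90 for Hbb-y, 2.89 for Hba-x, 2.82 for Tubb3 and 1.62 for Pcdh12. Without the E9.5 replicate 2 pair, whose ectoderm library stands apart in red cell genes, Hbb-y gave 1.08 and Hba-x 1.06 (edgeR, adjusted p = 0.307 and 0.392), and without the replicate 1 pair 4.55 and 4.57. Neither was called without the batch term (adjusted p = 0.0616 and 0.0636), and Hba-x was not called by DESeq2 (0.0546). Sox10 gave 10.22 with 1 count in the E9.5 mesoderm, and Crhr1 (5.47) and Acpp (3.80) had none and 2 counts there, so these 3 fitted values are no estimate of size; Acpp gave 7.04 without the replicate 2 pair. The remaining genes were Dgkk at 5.41, Enpp1 at 4.61 and Tmem178 at 4.34. Of the 87 genes, 56 were called without the batch term, 60 without the E9.5 replicate 1 pair, 55 without the replicate 2 pair and 80 by DESeq2.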

How the results depend on the processing

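Counts of calls moved by over 1.5 times with the block for embryo batch, which pairs the layers, with an E9.5 pair left out and, past 2-fold, with DESeq2. Without the block the layer difference at E9.5 was called in 3320 genes (6573 with it), 61.3% of them higher in ectoderm against 52.1%, and the difference between E9.5 and later stages in 947 (3157 with it). With 1 pair left out, these counts ranged from 3528 to 7039 and from 1215 to 3745, and the count past 2-fold (1924) from 1214 to 2154; where an E9.5 pair is out, the lone E9.5 samples are assumed to vary like the other groups. DESeq2 called 1236 genes past 2-fold. The cause of the move with DESeq2 was not tested; leaving out a pair leaves fewer samples. No gene called in both changed direction in any of the 13 alternatives. Of 208 named genes, 147 kept their side of the threshold in each alternative that tested them (Adgre1, Csf1r, Edn1, Nrg1, Shh and Sp9 were not tested in the E9.5 libraries alone); 33 were called with the block and not without it, 34 not without the E9.5 replicate 1 pair, 26 not without the replicate 2 pair and 3 not by DESeq2. At these depths, no call for a gene of few counts, such as Sp9 or Shh, does not show that its layers are alike.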
